A study of Caenorhabditis elegans with 18 samples.

Results

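Of the genes described here, 9 mark the intestine of the nematode *Caenorhabditis elegans* or build the surface through which it absorbs food. They are elt-2 and elt-7, pept-1, nhx-2 and vha-6, act-5, ifb-2 and erm-1, and ges-1. They were taken as a list of names, with earlier results of these data known, and no measured value was part of the rule. Each symbol matched 1 identifier of the count tables through the annotation of the genome build WBcel235, so that all 9 of 9 were found among 46748 identifiers, and all 9 passed the filter on low counts in each comparison.

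The worm intestine is a tube of large epithelial cells that digests food, takes up nutrients and stores fat and yolk precursors. ELT-2 and ELT-7 are GATA transcription factors, and ELT-2 is the main activator of genes of the differentiated gut. The face of each cell towards the gut cavity carries a brush border of microvilli. These are built on filaments of the actin ACT-5, tied to the membrane by ERM-1 and seated on a sheet of intermediate filaments that holds IFB-2. In that membrane PEPT-1 carries small peptides into the cell together with protons, while VHA-6, a subunit of the vacuolar proton pump (V-ATPase), and the sodium/proton exchanger NHX-2 move the protons on which this uptake depends. GES-1 is a carboxylesterase whose activity has long served as a stain for gut differentiation.

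Poly(A) RNA of whole worms was sequenced in 18 libraries. The wild-type strain N2 (WT) and the strain CF2473, which carries the deletion allele ire-1(ok799) in every cell and is called ire-1 here, were grown at 15 °C from the egg to day 1 of adulthood. Control worms were harvested then, and cold worms were harvested after another 24 h at 2 °C, so that cold worms were also 24 h older. IRE-1 is a sensor of unfolded proteins in the endoplasmic reticulum. The sample labels put the libraries in 2 sets, ex1 and ex2, without saying what separates the sets. They are taken here as experiments 1 and 2. Experiment 1 had 12 libraries, n = 3 for every combination of strain and condition (replicates 1 to 3), with 20621965 to 29518450 counts per library. Experiment 2 had only WT worms, again n = 3 per condition (replicates 4 to 6), and 10449794 to 16814732 counts per library. The deposit calls the libraries biological replicates and does not say what separates them. Levels are given as CPM, counts relative to the library total after scaling by the trimmed mean of M values (TMM), and levels per kilobase of exon are used where genes are set against each other. In RNA of whole animals, fewer gut cells and less RNA per gut cell cannot be told apart.

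The ire-1 transcript was counted at 85.4 to 209 CPM in WT control, at 169 to 228 CPM in WT cold, at 36.6 to 56.3 CPM in the untreated mutant and at 39.0 to 63.8 CPM in the cold mutant. Reads from outside the deletion are part of these values. Some libraries stood apart from the rest. In the libraries called sperm-rich here, the summed level of 38 sperm genes was 297 to 1315 CPM (control 1 and cold 2 of both strains), and it was 6.03 to 109 CPM in the other 14 libraries. In control 1, 6 of the 9 gut genes were above both other libraries of the same group and experiment, in WT and in ire-1 alike, and in cold 2 it was 4 in WT and 7 in ire-1. WT cold 5 was the highest WT cold library for 6 of the 9 gut genes. The shares of all genes for these counts were not computed, so that they describe the libraries and are no result about the gut genes. Where the number of called genes of a list in WT cold changed without the sperm-rich libraries, both numbers are given.

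The genes lie on several chromosomes, and no exon of another annotated gene overlaps an exon of theirs. On WBcel235, elt-2 (WBGene00001250) spans X, 10481240 to 10483441, on the forward strand, and elt-7 (WBGene00015981) spans V, 4770670 to 4773086, on the forward strand. Of the transport genes, pept-1 (WBGene00003877) spans X, 6456872 to 6461767, forward, nhx-2 (WBGene00003730) spans II, 7690711 to 7693957, reverse, and vha-6 (WBGene00006915) spans II, 11435210 to 11438452, reverse. The structural genes are act-5 (WBGene00000067) at III, 13604412 to 13606066, reverse, ifb-2 (WBGene00002054) at II, 5750188 to 5754140, forward, and erm-1 (WBGene00001333) at I, 5284026 to 5291604, reverse. The esterase gene ges-1 (WBGene00001578) spans V, 1427653 to 1432137, reverse.

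Without cold, the genes of the microvillar core stood highest and the transcription factors lowest. In WT control the mean level per kilobase was 276 CPM for act-5, 112.6 for erm-1, 94.0 for vha-6, 38.6 for ifb-2, 27.8 for pept-1, 20.1 for ges-1, 14.2 for nhx-2, 6.01 for elt-2 and 5.29 for elt-7 (n = 6). The first step was the clearest, since act-5 was above erm-1 in 6 of 6 libraries with no overlap of their ranges. Every later pair of neighbours in this order overlapped in range, and elt-2 was above elt-7 in only 3 of 6 libraries. The factor genes rest on few reads, with 51 to 337 counts per library for elt-2 and 13 to 120 for elt-7, against 1299 to 15697 for act-5.

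The order at the top changed with cold. In WT cold, erm-1 came first with a mean of 133 CPM per kilobase and act-5 second with 97.4, and erm-1 was above act-5 in 5 of 6 libraries. In ire-1 control act-5 was again first (201 CPM per kilobase, above erm-1 at 128.5 without overlap, n = 3). In ire-1 cold erm-1 was first in 2 of 3 libraries, at a mean of 156 against 132. Levels per kilobase of elt-2 and elt-7 were the lowest of the 9 in all 4 groups.

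**Figure D1:**
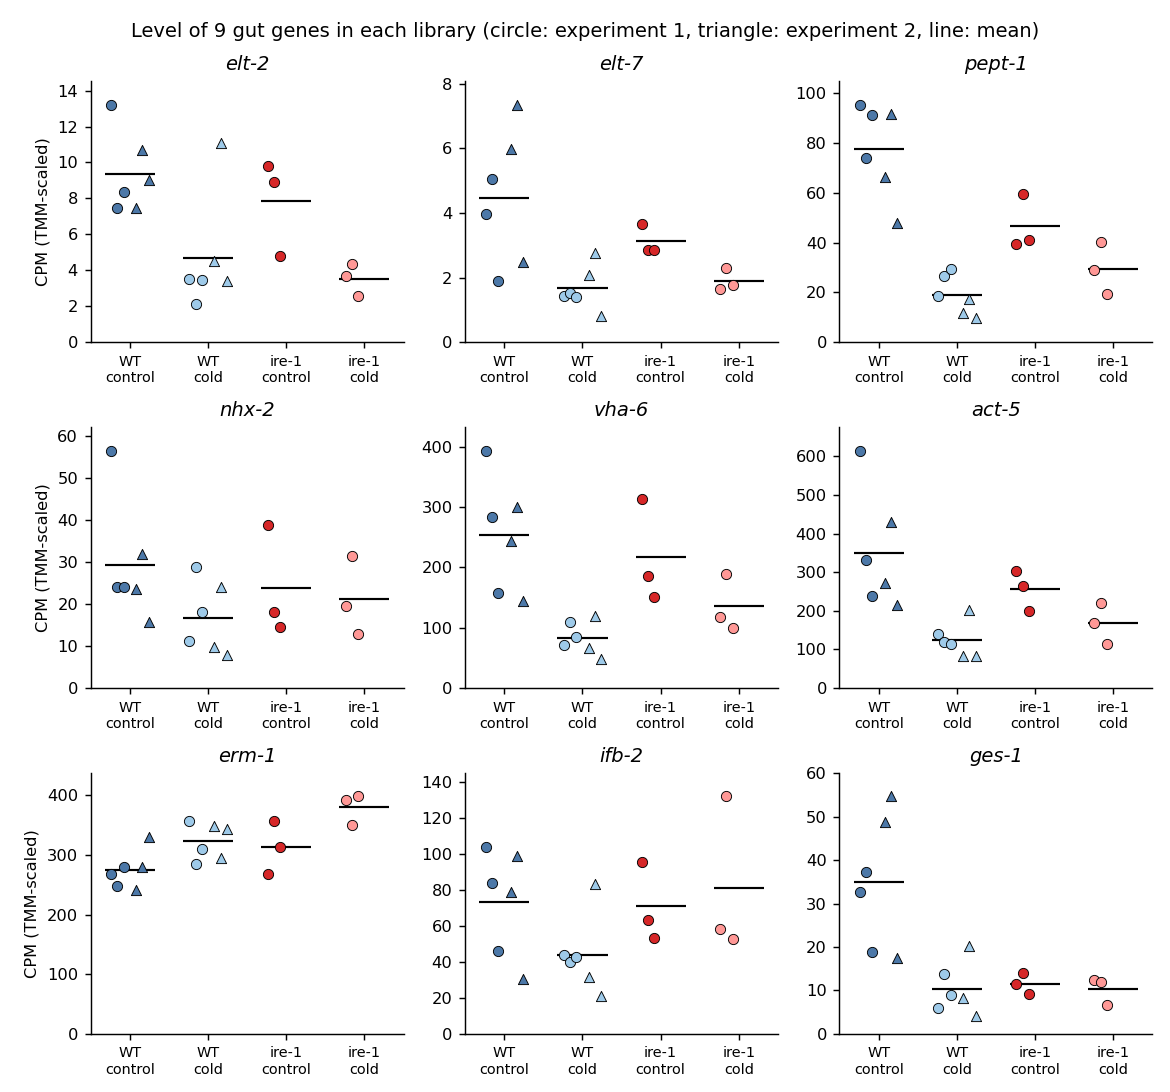
Level of each of the 9 gut genes (CPM, vertical axis) in each of 18 libraries, by group, with circles for experiment 1, triangles for experiment 2 and a line at the group mean. For pept-1, vha-6 and act-5 every WT cold library lies below every WT control library, while erm-1 is not lower in the cold in either strain.

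In WT worms, 5 of the 9 genes were lower after cold: the peptide transporter gene pept-1, the proton pump gene vha-6, the microvillar actin gene act-5, the esterase gene ges-1 and the factor gene elt-7. These 5 fell (edgeR quasi-likelihood test, adjusted p under 0.05 over 11766 genes), by 2.73-fold to 4.39-fold, and none rose. Of all tested genes 13.1% were called, of which 10.4% as lower and 2.7% as higher in the cold, each as a share of all tested genes. The median log2 change of the 9 genes was -1.45, against -0.07 over all genes. Without the sperm-rich libraries 4 of the 9 fell, and without WT cold 5 the number was 8. Over all genes 1545 were called with every WT library in the fit, and 848 to 2632 with 1 library left out. Counts of called genes with libraries left out, here and below, are to be read beside these numbers and are no result about a list.

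Of the transport genes, 2 of 3 passed. The peptide transporter gene pept-1 was at 47.7 to 95.3 CPM in WT control (median 82.6) and at 9.78 to 29.2 CPM in WT cold (median 18.03). All 6 cold libraries lay below all 6 control libraries, and the log2 fold change was -2.13 ± 0.24 (SE, adjusted p = 0.000414 by edgeR). Only 1.93% of all tested genes had a lower log2 fold change. The proton pump gene vha-6, whose product is the pump's membrane subunit in the gut, was at 145 to 394 CPM in control (median 263.5) and 48.6 to 119.7 CPM in cold (median 78.5). Its groups did not overlap either, and it fell by 1.64 ± 0.30 on the log2 scale (adjusted p = 0.00469 by edgeR). The exchanger gene nhx-2 was at 15.8 to 56.4 CPM in control (median 24.0) and 7.81 to 28.7 CPM in cold (median 14.6). Here the groups overlapped, and the change of -0.85 ± 0.38 did not pass (adjusted p = 0.142 by edgeR).

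Of the structural genes, act-5 passed and ifb-2 and erm-1 did not. The microvillar actin gene act-5 was at 215 to 615 CPM in WT control (median 301) and 83.4 to 202 CPM in WT cold (median 116). The groups did not overlap, and it fell by 1.54 ± 0.32 on the log2 scale (adjusted p = 0.00823 by edgeR). Groups without overlap, cold below control, were found for 3 of the 9 genes (pept-1, vha-6 and act-5) and for 4.9% of all genes. The intermediate filament gene ifb-2 was at 30.6 to 103.9 CPM in control (median 81.3) and 20.8 to 83.7 CPM in cold (median 41.4), and its change of -0.79 ± 0.37 did not pass (adjusted p = 0.158 by edgeR). The linker gene erm-1, which is also used in the excretory canal and the gonad, was at 241 to 329.7 CPM in control (median 274) and 285 to 356 CPM in cold (median 327). It was the only one of the 9 with a positive value, at 0.20 ± 0.10 (adjusted p = 0.204 by edgeR, 95% confidence interval -0.03 to 0.42), and passed with DESeq2 (0.29, adjusted p = 0.0382).

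The esterase gene ges-1 was at 17.4 to 54.7 CPM in WT control (median 35.0) and 4.00 to 20.3 CPM in WT cold (median 8.58). It fell by 1.79 ± 0.42 on the log2 scale (adjusted p = 0.0168 by edgeR), although WT cold 5 at 20.3 CPM lay above WT control 3 and 6 at 18.9 and 17.4 CPM. Among the regulators, elt-7 was at 1.89 to 7.35 CPM in control (median 4.50) and 0.800 to 2.77 CPM in cold (median 1.46), with overlap. It fell by 1.45 ± 0.38 (adjusted p = 0.0264 by edgeR), a call that was lost without the sperm-rich libraries (adjusted p = 0.0586) and when 1 of WT cold 1, 3, 4 and 6 or of WT control 1, 2, 4 and 5 was left out (adjusted p of 0.05 to 0.0785). The master regulator gene elt-2 was at 7.47 to 13.2 CPM in control (median 8.69) and at 2.14 to 4.53 CPM in 5 cold libraries, but at 11.1 CPM in WT cold 5. Its change of -1.14 ± 0.37 did not pass by edgeR with all 12 WT libraries (adjusted p = 0.0586). On the same libraries it passed with DESeq2 (-1.06, adjusted p = 0.0125) and with limma-voom (-1.26, adjusted p = 0.0185). Without WT cold 5, elt-2 fell by 1.52 (adjusted p = 0.00338), ifb-2 by 1.17 (adjusted p = 0.0269) and nhx-2 by 1.15 (adjusted p = 0.0445). That library was singled out by its high levels of gut genes, so that these passes follow in part from how it was chosen. Without WT control 6, elt-2 passed as well (-1.23, adjusted p = 0.0461).

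WT cold 5 was above the other WT cold libraries for some lists of other genes and not for others. The summed level of 20 digestive hydrolase genes was 10040 CPM there and 2508 to 5187 CPM in the other 5 WT cold libraries. Genes of the brush border and intermediate filaments other than the 9 summed to 448 CPM, against 265 to 309 CPM. The defecation rhythm genes (340.4 CPM, against 122.6 to 214.8) and the other gut transporters and channels (398 CPM, against 200.2 to 286.9) were higher too. So were the other sodium/proton exchangers (71.61 CPM, against 40.97 to 65.25). The 14 neuron markers were also above the rest, at 340.3 CPM against 253 to 302 CPM. The endoderm and gut factors (869.9 CPM, against 713.5 to 944.6) and the gut granule genes (819 CPM, against 805.5 to 1247) were within the range of the others. The same held for apical polarity and junction (1714 CPM, against 1194 to 2148) and for the other actins (1984 CPM, against 1884 to 2480). Its 21 other V-ATPase genes summed to 3074 CPM, below the 3271 to 3811 CPM of the others, and its sperm genes, at 73.7 CPM, were within their range of 6.03 to 297 CPM. Whether any of these levels bears on the gut genes was not tested.

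The experiments were also looked at apart. In experiment 1, WT cold lay below WT control without overlap for 7 of the 9 genes and above it for erm-1, against 14.6% of all genes below and 6.71% above. In experiment 2 it lay below for pept-1, vha-6 and act-5 (3 of 9, against 12.1% of all genes), and the other 6 genes overlapped. Within experiment 1 alone the log2 change was -1.77 for pept-1 (adjusted p = 0.0739 by edgeR), -1.59 for vha-6 and -1.62 for act-5. In experiment 2 alone it was -2.40 (adjusted p = 0.0585), -1.55 and -1.31. None of the 9 passed within a single experiment, where 3 and 48 of all genes did. For elt-2 the change was -1.65 in experiment 1 and -0.51 in experiment 2, a difference of 1.22 ± 0.66 that did not pass (adjusted p = 1 by edgeR). That test of the difference between experiments called 0 of 11766 genes (0%), with 71 at an unadjusted p under 0.05 and 1 called by DESeq2.

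**Figure D2:**
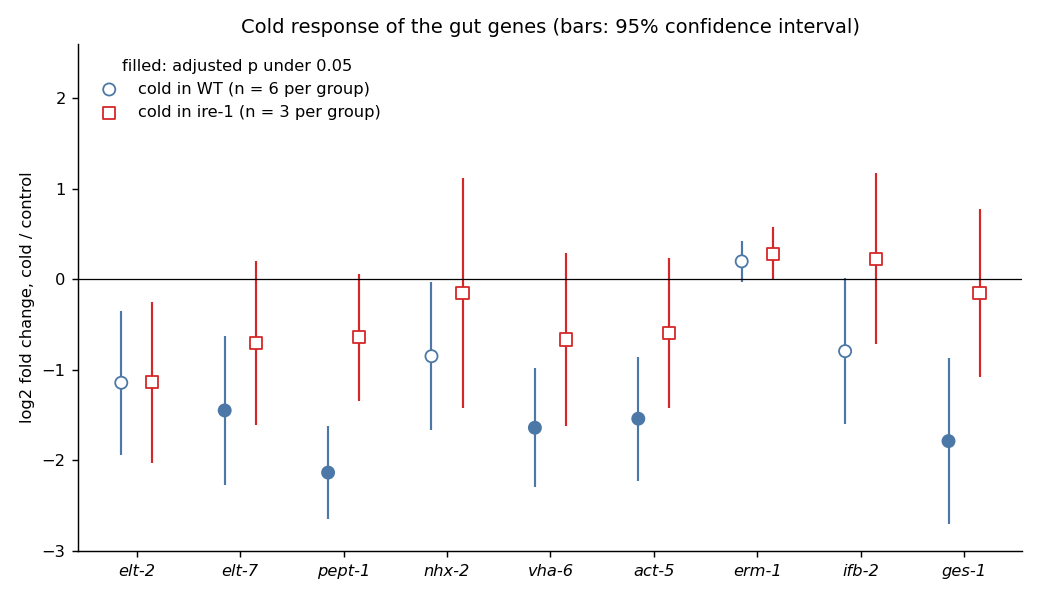
Log2 fold change of cold against control (vertical axis) for each gut gene in WT (circles, n = 6 per group) and in ire-1 (squares, n = 3 per group), with 95% confidence intervals as bars and filled symbols for an adjusted p under 0.05. In WT pept-1 lies lowest at -2.13 and erm-1 is the only gene above 0, and no symbol is filled in ire-1.

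Each gene was then set against elt-2 within the same library, a ratio that does not depend on library scaling. In WT, the ratio of erm-1 to elt-2 was 30.2 ± 5.89 in control and 87.8 ± 35.2 in cold (SD, n = 6), a log2 difference of 1.41 (exact permutation test within experiments, two-sided, p = 0.015, adjusted p = 0.12 over 8 genes). The ratio of pept-1 to elt-2 was 8.43 ± 2.00 in control and 5.52 ± 4.15 in cold, a log2 difference of -0.93 (exact permutation p = 0.035, adjusted p = 0.14). For the remaining 6 genes the log2 difference was between -0.67 for ges-1 and 0.42 for ifb-2 (adjusted p from 0.313 to 0.66 by the same exact permutation test). No ratio passed 0.05 after adjustment, and 400 arrangements allow no p below 0.005. Without WT cold 5 the ratio of erm-1 passed, at 1.70 (exact permutation test, adjusted p = 0.04). That library stood out by its high level of elt-2, the denominator of the ratio, so that this pass follows in part from how it was chosen.

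Set against the mean log2 level of the other 8 gut genes instead, 4 genes passed, each at an adjusted exact permutation p = 0.02. Relative to the others, erm-1 rose by 1.63 and ifb-2 by 0.52 on the log2 scale, while pept-1 fell by 1.00 and vha-6 by 0.41. In ire-1, with n = 3 per group, the smallest exact p is above 0.05 and values alone are given. There every log2 ratio to elt-2 was higher in cold than in control, from 0.40 for elt-7 to 1.22 for ifb-2 and 1.40 for erm-1. These ratios share elt-2 as their denominator, whose log2 change in ire-1 was the lowest of the 9 genes (-1.14). Their common direction is therefore not 8 separate agreements.

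In ire-1 worms the 2 factor genes were lower in every cold library, and the surface genes overlapped. The elt-2 level was 9.82, 8.93 and 4.79 CPM in ire-1 control 1 to 3 and 3.69, 4.33 and 2.57 CPM in ire-1 cold 1 to 3. Its log2 change was -1.14 ± 0.40 (adjusted p = 0.452 by edgeR). For elt-7 the levels were 3.66, 2.85 and 2.87 CPM in control and 1.64, 2.31 and 1.77 CPM in cold, a change of -0.70 ± 0.41 (adjusted p = 0.969). A cold group wholly below control was seen for these 2 of the 9 genes and for 9.32% of all genes tested.

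None of the transport genes passed in ire-1 worms. The pept-1 level was 39.5, 59.6 and 40.9 CPM in ire-1 control and 28.9, 40.1 and 19.2 CPM in ire-1 cold, a log2 change of -0.64 ± 0.32 (adjusted p = 0.809 by edgeR). The vha-6 level was 314, 186 and 150.1 CPM in control and 117, 189 and 98.6 CPM in cold, and that of nhx-2 was 38.8, 18.1 and 14.52 CPM in control and 19.4, 31.5 and 12.8 CPM in cold. In both genes ire-1 control 1 and ire-1 cold 2, the sperm-rich libraries, were the highest of their groups. Their log2 changes were -0.66 ± 0.43 for vha-6 and -0.15 ± 0.58 for nhx-2.

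Among the structural genes, act-5 was at 304, 263 and 199 CPM in ire-1 control and 169, 219 and 114 CPM in ire-1 cold, a log2 change of -0.59 ± 0.38. The level of ifb-2 was 95.7, 63.4 and 53.5 CPM in control and 58.3, 132 and 52.99 CPM in cold, so that 1 cold library, ire-1 cold 2, stood above all of control (change 0.23 ± 0.43, and -0.12 without the sperm-rich libraries). The level of erm-1 was 269, 357 and 313.5 CPM in control and 392, 350.3 and 399 CPM in cold (change 0.28 ± 0.13, adjusted p = 0.742 by edgeR). The esterase gene ges-1 was at 11.6, 13.96 and 9.07 CPM in control and 12.3, 11.8 and 6.71 CPM in cold, with overlap (change -0.15 ± 0.42, 95% confidence interval -1.08 to 0.77). None of the 9 genes passed in ire-1, where 8 of 14344 genes did (0.0558%) and 1009 had an unadjusted p under 0.05.

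The difference between the cold responses was tested itself, in experiment 1. By value, the change in ire-1 lay above that in WT for all 9 genes, where 41% of all genes had a value below 0. Over pairs of the 9 genes in experiment 1 the median r was 0.69, while erm-1 had a negative r with each of the others (lowest -0.71). Most of the genes thus varied together, so that they are not 9 separate agreements. No gene of 14344 passed (0%, with 197 at an unadjusted p under 0.05 and 1 called by DESeq2). The ire-1 response minus the WT response was 1.46 for ges-1 (95% confidence interval 0.15 to 2.78) and 1.17 for pept-1 (0.17 to 2.16), at unadjusted p of 0.0327 and 0.0254 and an adjusted p = 0.996 for both (edgeR). It was 1.14 for ifb-2 (-0.20 to 2.49), 1.13 for act-5 (-0.05 to 2.30), 1.00 for vha-6 (-0.34 to 2.35), 0.71 for nhx-2, 0.65 for elt-7, 0.58 for elt-2 and 0.04 for erm-1. The value of erm-1 turned negative with RLE scaling, with DESeq2 and without a filter, and that of elt-2 turned negative over all 18 libraries and without the sperm-rich libraries. The median of the 9 values was 1.00, against 0.12 over all genes, which RLE scaling moved to 0.02 and upper-quartile scaling to 0.22.

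**Figure D3:**
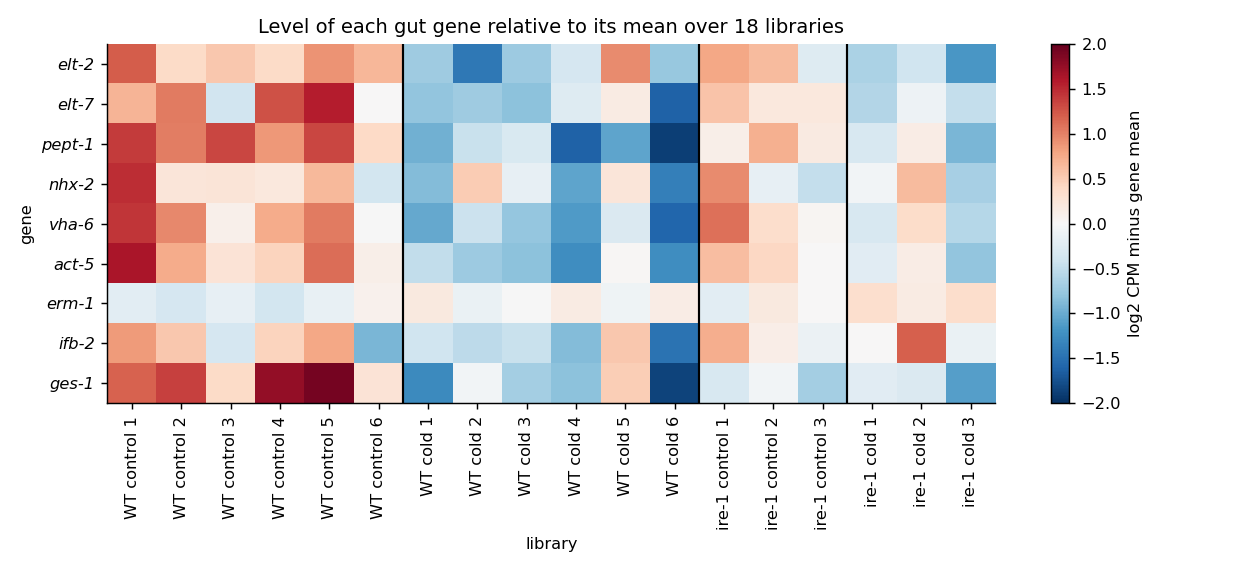
Level of each gut gene in each library as log2 CPM minus the gene's mean over 18 libraries (colour scale, red above and blue below the mean), with libraries in columns by group. Most genes are red in WT control and blue in WT cold, WT cold 5 is above the mean for elt-2, elt-7, nhx-2, act-5, ifb-2 and ges-1, and ges-1 is pale or blue in all 6 ire-1 libraries.

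The strains differed most in ges-1 and pept-1 when kept at 15 °C. The ges-1 level was 32.7, 37.4 and 18.9 CPM in WT control 1 to 3 and at most 13.96 CPM in ire-1 control. The groups did not overlap, and the log2 difference of ire-1 against WT was -1.43 ± 0.43 (adjusted p = 0.219 by edgeR). With libraries of the same number and condition paired, it was -1.39 and passed (adjusted p = 0.0401), in a fit that called 390 of all genes. For pept-1 the WT control levels in experiment 1 were 95.3, 73.8 and 91.4 CPM, above all of ire-1 control, a difference of -0.96 ± 0.32 (adjusted p = 0.255). Groups without overlap, ire-1 below WT, were found for these 2 of the 9 genes and for 10.2% of all genes. None of the 9 passed without pairing, while 9 of 14344 genes did (0.0627%). The other 7 differences lay between -0.71 for act-5 and 0.18 for erm-1.

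After cold none of the 9 genes was lower in ire-1 than in WT by value, where 43.5% of all genes were lower. The differences of ire-1 against WT were between 0.03 for ges-1 and 0.94 for ifb-2, and none passed (2 of 14344 genes did, 0.0139%). The ifb-2 level was 43.9, 40.1 and 42.6 CPM in WT cold 1 to 3 and at least 52.99 CPM in ire-1 cold, a difference of 0.94 ± 0.43 (adjusted p = 0.652 by edgeR) with no overlap. For elt-7, WT cold 1 to 3 at 1.42, 1.51 and 1.40 CPM were also below all of ire-1 cold, by 0.36 ± 0.41 on the log2 scale. Such groups, ire-1 above WT, were seen for 5.08% of all genes. In experiment 2 WT cold 5 reached 83.7 CPM for ifb-2, inside the range of ire-1 cold.

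Genes with the most similar pattern were sought among 6995 other genes averaging 10 CPM or more, as a description without a test. The libraries share their groups and their scaling, so that any gene that differs between groups can score high. Closest to the mean log2 level of the 9 genes over the 12 libraries of experiment 1 were exc-15 (Pearson r = 0.98), the galectin gene lec-10 (0.98), Y54F10AM.8 (0.97), the progranulin gene pgrn-1 (0.96) and K06G5.1 (0.96). Over the 6 libraries of experiment 2, which were not used to choose them, their r was 0.97, 0.95, 0.99, 1.00 and 0.97. For single genes the closest were nhr-114, which encodes a nuclear hormone receptor, for pept-1 (r = 0.96 and 0.90 in experiments 1 and 2), lec-10 for vha-6 (0.96 and 0.985) and act-5 (0.96 and 0.95), and F54D5.3 for ges-1 (0.97 and 0.99). The closest to elt-2 was hacd-1 (0.96 and 0.61), to elt-7 T28B8.1 (0.95 and 0.98), to nhx-2 dhs-21 (0.97 and 0.89) and to ifb-2 Y48G9A.9 (0.96 and 0.96). For erm-1 it was tars-1, the gene of threonyl-tRNA synthetase (0.96 and 0.94).

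Other gut genes were read in the same fit of cold in WT, where 10.4% of all genes were called lower and 2.7% higher. Of 12 tested genes for endoderm and gut transcription factors, 2 fell and none rose, with a median log2 change of -0.26. These were nhr-80, a nuclear hormone receptor gene of fat metabolism (-1.63 ± 0.38, adjusted p = 0.0144 by edgeR), and hlh-30, the worm TFEB gene (-1.01 ± 0.26, adjusted p = 0.0233). The next by p, the nuclear hormone receptor gene nhr-86, did not pass (-0.37 ± 0.15, adjusted p = 0.114). Without the sperm-rich libraries 1 of the 12 fell, since hlh-30 lost its call (adjusted p = 0.0582), as it did in 9 of 24 alternatives in all. Among 10 other genes of the brush border and gut intermediate filaments, 1 fell, eps-8 (-0.74 ± 0.19, adjusted p = 0.0233), which encodes an actin-capping protein of the microvilli. The filament genes ifc-2 (-1.17 ± 0.37) and ifp-1 (-1.53 ± 0.48) both stood at adjusted p = 0.054. In this list 6 genes fell without WT cold 5 and 0 without the sperm-rich libraries.

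Of 15 genes of apical polarity and of the junctions, 1 rose and none fell, against 2.7% of all genes called higher, and 11 had a value above 0 (median 0.13, against -0.07 over all genes). The polarity GTPase gene cdc-42 rose by 0.48 ± 0.12 (adjusted p = 0.0241 by edgeR), and the spectrin gene sma-1 (0.84 ± 0.29, adjusted p = 0.0703) and the alpha-catenin gene hmp-1 (0.54 ± 0.19, adjusted p = 0.0742) did not pass. The number that rose was 0 to 3 with 1 library left out, and cdc-42 lost its call in 8 of 24 alternatives. The 4 other actin genes are near-identical copies, and their counts depend on how reads shared between them were handled. They stayed nearer 0, at -0.42 ± 0.44 for act-4, -0.28 ± 0.31 for act-1, -0.13 ± 0.25 for act-3 and 0.03 ± 0.14 for act-2. Each of the 4 changed sign in at least 1 alternative. None of them passed.

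The families of vha-6 and nhx-2 were read in the same way. Of 21 other V-ATPase subunit genes 2 fell and none rose (median -0.30), a share near the 10.4% of all genes, namely vha-3, for a subunit of the membrane ring (-1.35 ± 0.29, adjusted p = 0.00967 by edgeR), and vha-12, for a subunit of the catalytic head (-0.65 ± 0.16, adjusted p = 0.0223). The number was 1 to 7 with 1 library left out, and vha-12 lost its call in 4 of 24 alternatives. The gene vha-7, which like vha-6 encodes a form of the large membrane subunit, had a positive value (0.49 ± 0.16, adjusted p = 0.0563). Of 7 tested sodium/proton exchanger genes other than nhx-2, 2 fell, nhx-3 (-1.38 ± 0.38, adjusted p = 0.0313) and nhx-8 (-0.83 ± 0.23, adjusted p = 0.0326), while nhx-1 did not pass (-1.40 ± 0.64, adjusted p = 0.151). Without the sperm-rich libraries 1 of the 7 fell. Both calls were lost when any one of WT cold 1, 3, 4 or 6 or WT control 1, 4 or 5 was left out.

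The lists of uptake and of the rhythm of the gut had calls in the downward direction alone, where all genes had 10.4% lower and 2.7% higher. Of 20 other gut transporter and channel genes 4 fell and none rose (median -0.48), among them the heme transporter gene hrg-4 (-2.08 ± 0.37, adjusted p = 0.00378 by edgeR), the folate transporter gene folt-1 (-1.18 ± 0.27, adjusted p = 0.0132) and slcf-1 (-1.30 ± 0.36, adjusted p = 0.0323). Without the sperm-rich libraries 3 of the 20 fell, with 1 library left out 2 to 5, and slcf-1 lost its call in 11 of 24 alternatives. Of 9 genes that the gut uses in the defecation rhythm, which also drives proton cycling across its membranes, 4 fell and all 9 had values below 0 (median -1.09). Among these were the potassium channel gene kqt-3 (-1.83 ± 0.31, adjusted p = 0.00317), flr-1, a gene of the epithelial sodium channel family, (-2.08 ± 0.39, adjusted p = 0.00474) and the kinase gene flr-4 (-1.35 ± 0.38, adjusted p = 0.0362). Here 3 fell without the sperm-rich libraries and 2 to 6 with 1 library left out, and flr-4 lost its call in 11 of 24 alternatives. Of 14 genes of gut granules, which are lysosome-related organelles, 3 fell and 1 rose (median -0.18). The falls were in the adaptor gene aps-3 (-0.86 ± 0.14, adjusted p = 0.00271) and the half-transporter genes haf-4 (-1.26 ± 0.28, adjusted p = 0.0116) and haf-9 (-0.77 ± 0.21, adjusted p = 0.03), of which haf-9 lost its call in 12 of 24 alternatives. Without the sperm-rich libraries 3 again fell and 0 rose.

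Of the 10 gut lists, that of the digestive hydrolases had the most calls in WT cold. Of 20 genes 12 fell and none rose, and all 20 had values below 0 (median -1.36, against -0.07 over all genes). The aspartic protease genes asp-13 (-3.47 ± 0.48, adjusted p = 0.00105 by edgeR) and asp-4 (-1.70 ± 0.27, adjusted p = 0.00206) and the cathepsin B gene cpr-5 (-1.70 ± 0.32, adjusted p = 0.00546) led it by p. The number was 8 without the sperm-rich libraries, 17 without WT cold 5 and 6 without WT cold 1, WT cold 4 or WT control 4. Their summed level was 6024 to 18570 CPM in WT control and 2508 to 10040 CPM in WT cold, over both experiments. Within experiment 1, the only one with ire-1, it was 7650 to 18570 CPM in WT control and 4359 to 5187 CPM in WT cold. There it was 4427 to 5430 CPM in ire-1 control and 4004 to 5590 CPM in ire-1 cold. In ire-1 none of the 20 passed in the cold (median -0.10), where 0 of 14344 genes (0%) were called lower with n = 3 per group. Between the strains in the control 19 of the 20 were lower in ire-1 by value, as were 53.1% of all genes. Of the 20, 1 passed, the DNase gene nuc-1 (-1.99 ± 0.25, adjusted p = 0.0238 by edgeR, where 0.0488% of all genes were called lower). This gene was chosen after its value was seen.

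**Figure D4:**
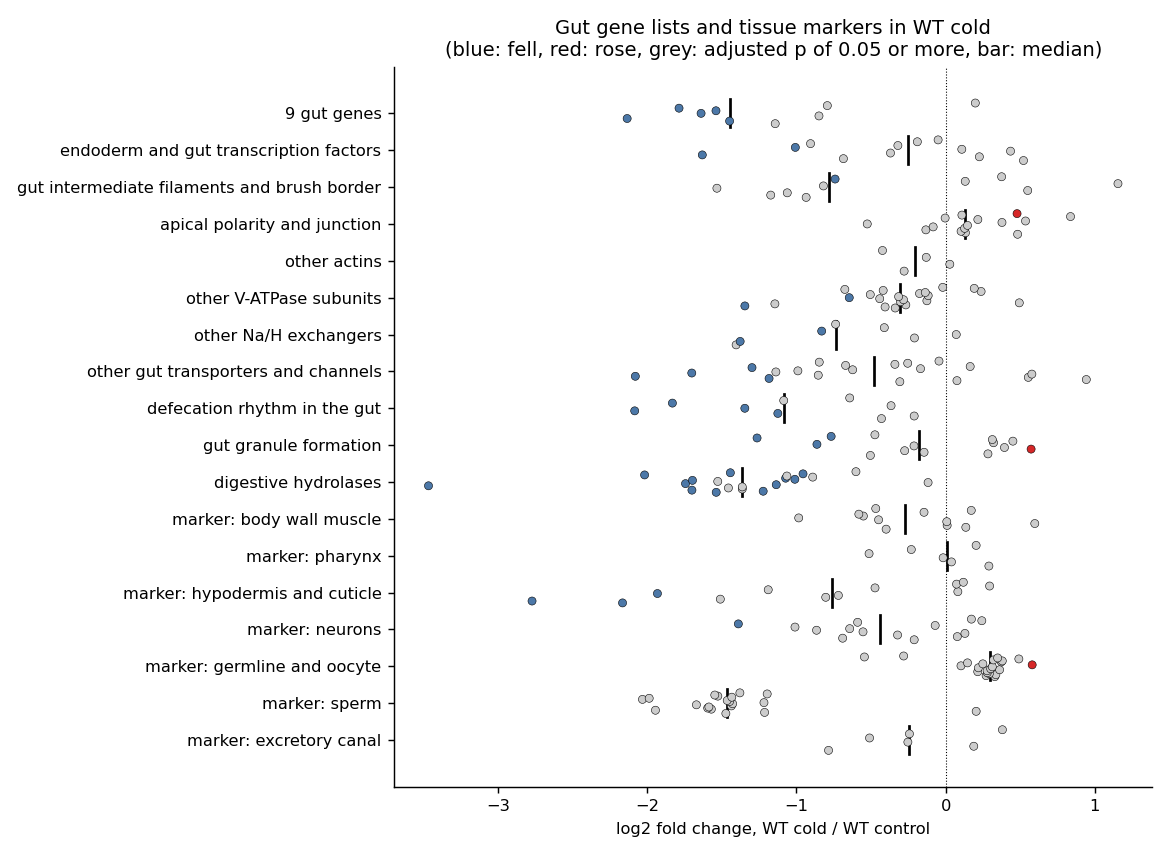
Log2 fold change of WT cold against WT control (horizontal axis) for each tested gene of the gut lists and of the marker lists of other tissues, with blue points for genes that fell, red for genes that rose, grey for the rest and a bar at each list's median. The 20 digestive hydrolase genes all lie below 0 with a median of -1.36, and the 15 genes of apical polarity and junction have a median of 0.13.

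Markers of other tissues were read in the same fit, against the same shares of all genes (10.4% lower and 2.7% higher). None of 12 body wall muscle, 6 tested pharynx, 6 excretory canal or 20 tested sperm genes passed in WT cold, with medians of -0.27, 0.01, -0.25 and -1.47. Of 12 tested genes of hypodermis and cuticle, 3 fell, the collagen genes col-10 (-2.77 ± 0.45), sqt-3 (-1.93 ± 0.32) and dpy-7 (-2.17 ± 0.61), and of 14 neuron genes 1 fell, the synaptic vesicle gene sng-1 (-1.39 ± 0.40). Without the sperm-rich libraries the numbers were 2 and 0, and sng-1 lost its call in 13 of 24 alternatives and dpy-7 in 6 of 16. Of 22 germline and oocyte genes 1 rose, the synaptonemal complex gene syp-1 (0.58 ± 0.14, a call lost in 4 of 24 alternatives), and 20 had values above 0 (median 0.30). The germline genes summed to 5645 to 22460 CPM in WT control and 13930 to 25480 CPM in WT cold. The excretory canal genes, a tissue that shares act-5 and erm-1 with the gut, summed to 71.0 to 96.4 CPM in WT control and 73.0 to 93.2 CPM in WT cold. The part of other tissues in the levels of the gut genes was not tested.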

How the data were processed

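The members and the gene lists were chosen with earlier results of these data known. The authors deposited raw counts of reads per gene, whole numbers with 1 column per library. Per the submitters' processing notes the tools were bcl2fastq, STAR 2.5.0a and HTSeq on WBcel235. Which annotation release and strand setting they used is not given in the sources at hand, so that reads of listed genes and of any antisense partner cannot be told apart, although no exon of another gene overlaps those of the 9 genes. Per the labels' protocols RNA was extracted with Trizol, selected for poly(A) and made into libraries with a NEBNext Ultra II kit.

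Symbols, positions and exon lengths came from the Ensembl 115 annotation of WBcel235. Counts were scaled by TMM factors, filtered by filterByExpr (minimum count 10, minimum total 15) and tested by quasi-likelihood in edgeR 4.0.16 (R 4.3.3), with Benjamini-Hochberg adjustment over all tested genes at 0.05. Cold in WT was fitted over 12 libraries with the experiment as a term, and the strain comparisons over the 12 libraries of experiment 1 without pairing. Errors of log2 changes are standard errors from the fit. Log2 ratios to elt-2 used a prior count of 0.5 and an exact permutation test. Alternatives used DESeq2 1.42.0, limma 3.58.1 (voom), other scaling factors, no filter, a replicate block and libraries left out. The fits were tested on simulated counts.

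No libraries of a group were near-identical, with a chi-square per degree of freedom of at least 11.05 over 36 pairs of libraries. Precision is limited by depth for elt-7, with as few as 13 counts in a library. It is limited as well for named genes with WT cold means below the 1.66 CPM of elt-7. Of the gut lists these were kqt-3 (1.425 CPM), hrg-4 (1.18), ifp-1 (1.11), flr-1 (1.04), flr-4 (0.84) and nhx-1 (0.83). Of the marker lists they were col-10 (0.84 CPM), sng-1 (0.395) and dpy-7 (0.35). Libraries of the 2 strains with the same number and condition deviated together from their group means. Their r was 0.362 to 0.878 in 6 of 6 pairs. They were paired within a condition in an alternative fit only, and the main tests of the strains did not use pairing. This pairing is read from the data and not given by the labels. Besides the members, genes were named by a rule: ire-1, the 4 other actins, the 3 tested genes with the smallest p in WT cold of every other gut list, and the genes of closest pattern. Of the marker lists only called genes are named. The gene nuc-1 falls outside the rule and was chosen after its value was seen. Promoter motifs were planned but not analysed here.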

Additional observations from a re-analysis of the deposited data

Results flagged for a closer look

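In the WT cold group the elt-2 level of WT cold 5 was 11.07 CPM, far from the other 5 libraries, of which the nearest was at 4.527 CPM and the lowest at 2.138 CPM. The ifb-2 level of the same library was 83.66 CPM, with the nearest at 43.9 CPM and the lowest at 20.79 CPM. The gap to the nearest library was 0.733 of the whole range for elt-2 and 0.632 for ifb-2. Both WT groups were examined for all 9 genes, 18 groups of 6 libraries in all, and these 2 were flagged. Chance flags about 1 in 20 groups where values are normally distributed and groups are independent. Here most of the genes varied together and both flags are the same library, so that chance is not excluded. With WT cold 5 left out, both genes passed the test for cold in WT, which follows in part from leaving out the values that flagged this library.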

How the results depend on the processing

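Of the 9 gut genes, pept-1, vha-6, act-5 and ges-1 fell in WT under every alternative that used both experiments. The fits of a single experiment called none of them. In WT, 1545 genes were called over both experiments, 2611 with DESeq2, 3 in experiment 1 alone, 48 in experiment 2 alone and 3395 without WT control 6 and WT cold 5, where 8 gut genes were called in place of 5. In the single experiments 0 gut genes were called. Leaving out 1 library at a time gave 848 to 2632 genes and 4 to 8 gut genes.

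The cold response in ire-1 called 8 genes, 17 with RLE factors, 4 with upper-quartile factors, 342 with DESeq2, 14 with limma-voom, 187 without the sperm-rich libraries and 0 in the 2 groups alone, and 0 to 50 with 1 library left out. Between the strains in the control 9 genes were called, 294 with DESeq2, 3 without the sperm-rich libraries, 1 in the 2 groups alone and 2 to 48 with 1 library left out. In the cold it was 2 genes, 47 with DESeq2, 6 without the sperm-rich libraries and 1 to 3 with 1 library left out. DESeq2 called 1 gene for the difference of the cold response between strains and 1 for that between experiments. The cause of these shifts was not tested. Scaling moved the median log2 change of all genes from -0.07 to -0.18 for cold in WT and from 0.07 to 0.17 between the strains in the cold (both with upper-quartile factors), and from -0.04 to 0.12 between the strains in the control (RLE factors).

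With the replicate block over all conditions the cold response in ire-1 called 0 genes and the strains in the control differed in 2, and elt-2 (-1.22, adjusted p = 0.0351) and ifb-2 (-0.79, adjusted p = 0.0381) passed in WT cold. Of pairs of control with cold of the same number, 3 of 6 in WT and 1 of 3 in ire-1 deviated together. Their r was -0.738 to 0.775 in WT and -0.891 to 0.828 in ire-1. Whether numbers pair control with cold is not given by the labels and cannot be told from these mixed values. With the block within each condition, 390 genes and 1 gut gene (ges-1) were called between the strains in the control and 22 genes in the cold. No other call on a gut gene changed under that block.

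Several values near 0 changed sign. For cold in WT, act-2 was -0.092 with upper-quartile factors and act-3 was 0.11 without the sperm-rich libraries. With 1 library left out, act-1 ranged from -0.44 to 0.10, act-2 from -0.035 to 0.11, act-3 from -0.27 to 0.21 and act-4 from -0.62 to 0.017. For cold in ire-1, ifb-2 was -0.12 without the sperm-rich libraries. With 1 library left out, ifb-2 ranged from -0.41 to 0.52, ges-1 from -0.33 to 0.089 and nhx-2 from -0.63 to 0.42. The difference of the cold response in erm-1 was -0.059 with RLE factors, -0.056 without a filter, -0.059 with DESeq2, -0.19 without the sperm-rich libraries and -0.16 to 0.13 with 1 library left out. In elt-2 it was -0.032 without the sperm-rich libraries and -0.0501 over all 18 libraries.

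Between the strains in the cold, elt-2 was -0.18 and pept-1 -0.033 without the sperm-rich libraries, and nhx-2 was -0.015 with the replicate block. With 1 library left out, elt-2 ranged from -0.043 to 0.40, ges-1 from -0.26 to 0.45, nhx-2 from -0.40 to 0.55 and pept-1 from -0.16 to 0.45. Between the strains in the control, the same ranges were -0.50 to 0.042 for elt-2, -0.61 to 0.25 for elt-7, -0.50 to 0.20 for ifb-2, -0.97 to 0.052 for nhx-2 and -0.74 to 0.046 for vha-6. For the ratios to elt-2, 4 genes passed relative to the other 8 gut genes and 0 to 1 with 1 library left out. In experiment 1 alone the log2 ratio changed by 0.45 for elt-7, 0.086 for vha-6, 0.094 for act-5 and 0.011 for ges-1, and in experiment 2 alone by -0.20 for nhx-2 and -0.011 for ifb-2. That of elt-7 ranged from -0.42 to 0.049 with 1 library left out. Scaling of the displayed levels by RLE factors, upper-quartile factors or library totals, tried after seeing the data, moved the mean of each gut gene in each group by less than 1 SD of that group. The promoter motif count was not run.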
